A study of Mus musculus with 12 samples.

Results

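The elastic fibre genes of the mouse thymus are 10 genes out of the 22843 gene symbols in the mRNA expression profile: Eln, Fbn1, Fbn2, Mfap2, Mfap5, Fbln1, Fbln2, Fbln5, Lox and Loxl1. They were picked by name as structural proteins and cross-linking enzymes of the fibre, after the mRNA levels of these same libraries had been seen, so their levels and changes with age are given here as a description and not as a test. The thymuses came from male wild type C57BL/6 mice that were 2 weeks (2W), 6 weeks (6W) or 3 months (3M) old, with 2 biological replicates at each age and no treatment. Long RNA and miRNA were sequenced from total RNA of the whole organ in 6 libraries each, and whether a miRNA library and a long RNA library of the same age and number came from 1 animal was not given. The study asked how RNA expression changes between rapid thymus growth and its early decline.

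Elastic fibres are built from a core of cross-linked elastin on a scaffold of fibrillin microfibrils. The fibulins help to bring tropoelastin onto that scaffold, and lysyl oxidases then oxidise its lysines so that the monomers become joined. In the thymus, elastic fibres are known from the walls of vessels and from the capsule and septa, where mesenchymal cells and smooth muscle cells make them. In the gene annotation deposited with the mRNA profile, Fbn1, Fbn2, Mfap2 and Mfap5 are 4 of the 11 genes listed under microfibril, Eln, Fbln1 and Fbln5 are 3 of the 4 under elastic fiber, and Fbln5 and Lox are 2 of the 9 under elastic fiber assembly.

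The long RNA libraries held 16519753 to 22553481 estimated mRNA counts, and all 10 genes passed the filter on low counts that left 14805 genes for the fit. The genes did not share 1 course with age. Eln and Fbn2 were several-fold lower at 6W and 3M than at 2W, and Fbln2 and Fbn1 were lower at 3M than at 2W by smaller amounts. The other 6 genes did not pass in any comparison, with log2 fold changes in 3M against 2W that ran from -2.09 for Mfap2 to 1.06 for Loxl1. In 6W against 2W, 2 of the 10 genes were lower and 0 higher with an adjusted p below 0.05 in edgeR's quasi-likelihood test, where 1.74% of all tested genes passed, 0.263% on the lower and 1.47% on the higher side. In 3M against 6W, 0 of 10 passed, against 0.00675% of all tested genes. At an unadjusted p under 0.05, 3 of the 10 passed in that comparison, Eln and Fbln2 lower and Lox higher, as did 14.3% of all genes. DESeq2 called 1 of the 10 there, Fbln2. The share of all genes that DESeq2 called is not given here for any comparison. In 3M against 2W, 4 of 10 were lower and 0 higher, where 11% of all tested genes passed, 3.1% on the lower and 7.91% on the higher side. Each age takes part in 2 of these 3 comparisons, so they share libraries. Nothing is read from these shares, because the genes were chosen from the same comparisons.

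**Figure D1:**
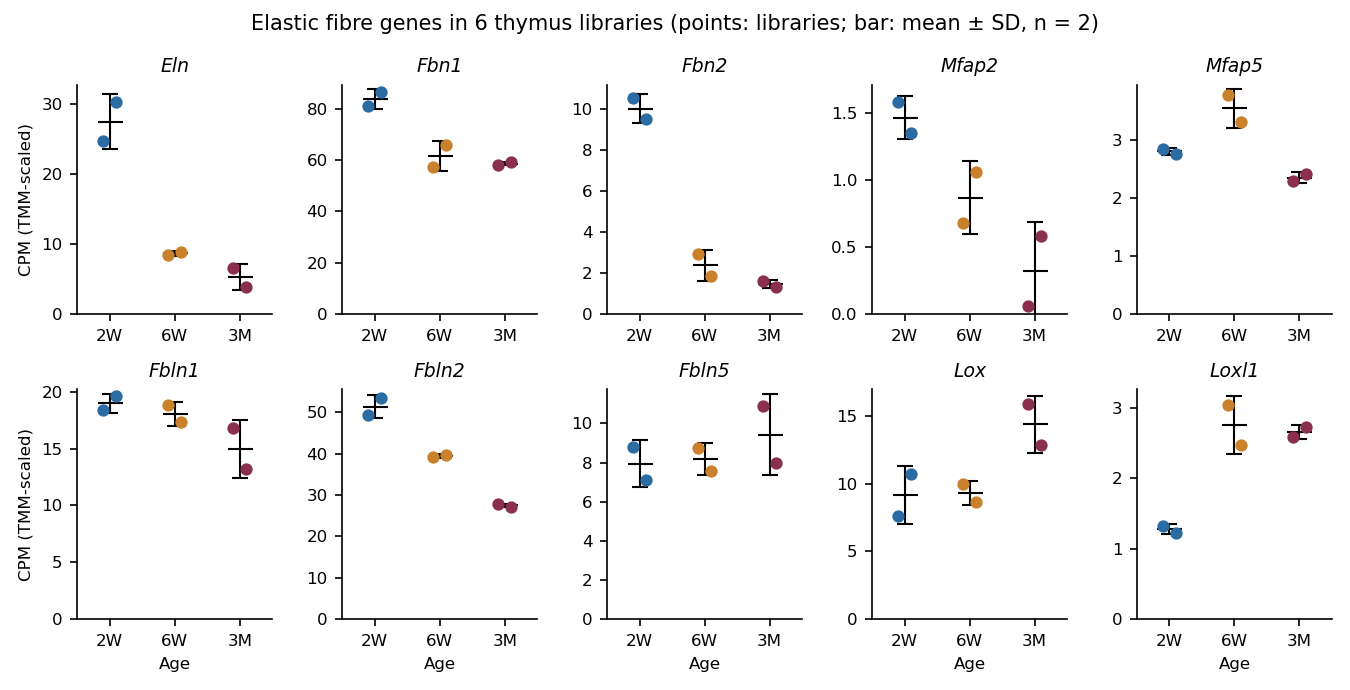
Counts per 1000000 (CPM, on library sizes scaled by TMM, the trimmed mean of M-values) of the 10 elastic fibre genes on the vertical axis of each panel, against age, with 1 point per library and the mean ± SD of the 2 libraries of an age as a bar. Eln and Fbn2 are lower at 6W than at 2W, Fbln2 is lower at each later age, Lox has its highest mean at 3M, and the lower SD bar of Mfap2 at 3M runs below the axis because 1 of its libraries holds 1 count.

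Eln encodes tropoelastin, the monomer of the elastic core. Its levels were 24.7 and 30.2 CPM in the 2W libraries, 8.43 and 8.91 CPM at 6W, and 6.56 and 3.94 CPM at 3M. No library of one age reached the range of another, and both 3M libraries were the lowest. The log2 fold change was -1.66 (standard error 0.25) in 6W against 2W, -0.74 (0.25) in 3M against 6W and -2.40 (0.26) in 3M against 2W, the last a level 5.27-fold lower. The first and the last passed an adjusted p of 0.05. The difference between 2W and 6W was the larger one in the log2 estimate, and the call for it was lost when any 2W or 6W library was left out, while the call in 3M against 2W was kept whichever library was left out. The call in 6W against 2W was also lost when gene symbols were taken exactly as spelled. The value in 3M against 6W was -1.13 without the first 3M library and -0.46 without the second.

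The microfibril genes encode the fibrillins, long proteins that polymerise into the scaffold, and small glycoproteins that bind to it. Fbn1, the main fibrillin of adult tissue, was at 80.9 and 86.6 CPM at 2W, 57.4 and 65.7 CPM at 6W, and 58.1 and 59.1 CPM at 3M. Both 2W libraries lay above the other 4, and the 6W and 3M libraries overlapped. Its log2 fold change was -0.44 (0.11) in 6W against 2W, -0.07 (0.11) in 3M against 6W and -0.52 (0.12) in 3M against 2W, of which the last passed. That call was lost when any of the 6 libraries was left out, and DESeq2 also called Fbn1 lower in 6W against 2W.

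Fbn2, a fibrillin that is used mostly in fetal and early postnatal tissue, was at 10.5 and 9.50 CPM at 2W, 2.91 and 1.85 CPM at 6W, and 1.62 and 1.34 CPM at 3M. The ages did not overlap, and the 2W libraries stood far above the rest. The log2 fold change was -2.07 (0.29) in 6W against 2W, -0.68 (0.30) in 3M against 6W and -2.75 (0.30) in 3M against 2W, a 6.74-fold lower level. As for Eln, the first and the last passed, and the first was lost when a 2W or 6W library was left out. Without the first 6W library, the value in 3M against 6W was -0.33.

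The microfibril-associated glycoproteins were thinly counted. Mfap2 had 25 and 22 counts at 2W, 14 and 24 counts at 6W, then 1 and 13 counts at 3M, and its log2 fold change in 3M against 2W was -2.09 with a standard error of 0.79. It did not pass, and the estimate ran from -4.49 to -1.29 as libraries were left out, with a call only without the second 3M library. Mfap5 was at 2.85 and 2.76 CPM at 2W, 3.78 and 3.31 CPM at 6W, and 2.29 and 2.42 CPM at 3M. Both 6W libraries were the highest, with a log2 fold change of 0.34 (0.26) in 6W against 2W and -0.59 (0.26) in 3M against 6W, and neither passed.

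Among the fibulins, Fbln2, which binds both fibrillin and basement membrane proteins, had the larger change. It was at 49.4 and 53.4 CPM at 2W, 39.1 and 39.7 CPM at 6W, and 27.8 and 27.2 CPM at 3M. Each age lay below the one before with no overlap. The log2 fold change was -0.38 (0.11), -0.52 (0.11) and -0.90 (0.11) in 6W against 2W, 3M against 6W and 3M against 2W, of which the last passed and was kept whichever library was left out. Fbln1, a fibulin found with elastin in vessel walls, ranged from 13.2 to 19.6 CPM over the 6 libraries and had a log2 fold change of -0.34 (0.16) in 3M against 2W. Fbln5, which binds tropoelastin and lysyl oxidases and is needed to form elastic fibres, ranged from 7.11 to 10.9 CPM with overlapping libraries at every age, and its log2 fold change was 0.25 in 3M against 2W. Neither gene passed in any of the 3 comparisons.

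The lysyl oxidases cross-link the elastin monomers. Lox was at 7.65 and 10.7 CPM at 2W, 9.98 and 8.69 CPM at 6W, and 15.9 and 12.9 CPM at 3M. Both 3M libraries were above the other 4, which overlapped, with a log2 fold change of 0.62 (0.21) in 3M against 6W and 0.65 (0.22) in 3M against 2W. Loxl1, the family member that keeps elastic fibres renewed in the adult, was at 1.33 and 1.23 CPM at 2W, 3.05 and 2.47 CPM at 6W, and 2.59 and 2.73 CPM at 3M. Its step was between 2W and 6W, with a log2 fold change of 1.11 (0.30), and 6W and 3M overlapped. Neither oxidase passed an adjusted p of 0.05. At the study's looser threshold, a log2 fold change beyond 1 in either direction and an unadjusted p below 0.05, Loxl1 was higher in 6W against 2W and in 3M against 2W, where 4.48% and 7.67% of all tested genes were. Eln and Fbn2 were lower in both by that threshold and Mfap2 in the second, where 0.878% and 1.68% of all tested genes were.

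**Figure D2:**
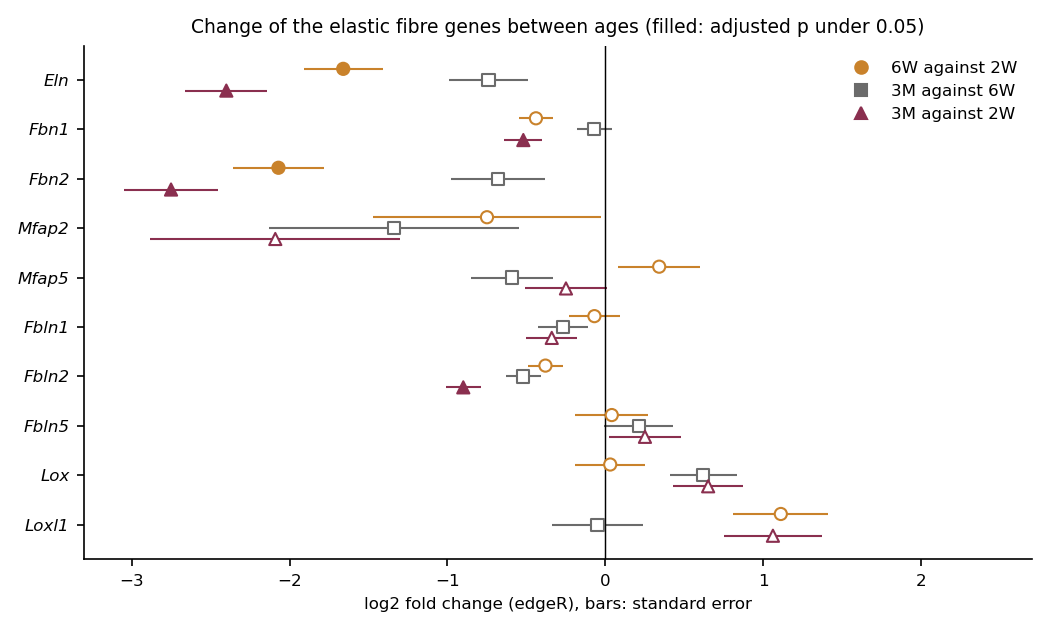
log2 fold change of the 10 genes on the horizontal axis, by gene, in the 3 comparisons of ages, with the standard error of edgeR as a bar and a filled symbol where the adjusted p was under 0.05. Filled symbols stand only on the side of lower levels, for Eln and Fbn2 in 6W against 2W and for Eln, Fbn1, Fbn2 and Fbln2 in 3M against 2W, while Lox and Loxl1 lie to the right in 3M against 2W with open symbols.

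The plot of log2 fold changes places the 10 genes between -2.75 and 1.06 in 3M against 2W, with a median of -0.43, where the median over all tested genes was -0.03. The medians were -0.23 and -0.39 in 6W against 2W and 3M against 6W, against -0.01 and 0.02 over all genes. Counted by libraries that did not overlap, 5 of the 10 genes were lower and 2 higher in 6W against 2W, where 29.8% and 28% of all tested genes were. In 3M against 6W these counts were 6 and 1, against 23.3% and 25.9%, and in 3M against 2W 7 and 2, against 24% and 27.7%. With 2 libraries an age, an exact permutation test of a single gene cannot give a p below 0.333.

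Levels of different genes were compared per transcript length, in FPKM (fragments per kilobase and 1000000 fragments). At 2W the order was Fbln2 at 9.80, Fbn1 at 7.57, Eln at 6.79 and Fbln1 at 6.44 FPKM, followed by Fbln5, Lox, Mfap5, Mfap2, Fbn2 and, lowest, Loxl1 at 0.345 FPKM. Fbn1 and Eln, Eln and Fbln1, and Lox and Mfap5 overlapped as neighbours in that order. At 6W Fbln2 led at 8.0 FPKM, ahead of Fbln1 and Fbn1, which overlapped, and Eln had moved to the sixth place at 2.16 FPKM, overlapping with Mfap5. At 3M the order was Fbn1 at 5.58, Fbln2 at 5.45, Fbln1 at 5.28, Fbln5 at 3.63 and Lox at 2.95 FPKM, and Eln was now the seventh of the 10 at 1.29 FPKM, below Mfap5, with which it overlapped. Fbn2 was the lowest at 3M, at 0.13 FPKM, and overlapped with Mfap2. The first 3 genes of the 3M order overlapped with their neighbours, so that no single gene led.

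Ratios of FPKM within a library put these shifts side by side without the library size. The Eln to Lox ratio, substrate to cross-linking enzyme, was 3.91 and 3.77 at 2W, 1.01 and 1.27 at 6W, then 0.495 and 0.364 at 3M. Per length, Eln was thus above Lox in both 2W libraries and below it in both 3M libraries. In the first 6W library they were nearly equal, at 2.08 and 2.05 FPKM. By CPM, Lox was the higher one there, at 9.98 against 8.43 for Eln. The Fbn2 to Fbn1 ratio was 0.116 and 0.0982 at 2W, 0.0451 and 0.0255 at 6W, then 0.0258 and 0.0210 at 3M, so that the share of Fbn2 among fibrillin messages was highest at 2W. The Eln to Fbn1 ratio went from 0.893 ± 0.158 (SD, n = 2) at 2W to 0.366 ± 0.0133 at 6W and 0.232 ± 0.0859 at 3M.

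Markers of the cells that make elastic fibres did not move as 1 group. The counts of markers called in 3M against 2W stand beside 7.91% of all tested genes on the higher and 3.1% on the lower side. Among 10 fibroblast markers, 4 were higher and 2 lower in 3M against 2W. Their summed level was 589 and 673 CPM at 2W and 526 and 399 CPM at 3M, and it mostly follows the most abundant of them. Col3a1 and Dpp4 had the highest means at 2W. Dpp4, which did not pass, was at 117 and 150 CPM at 2W and 106 and 79.8 CPM at 3M. The 4 that rose, Pdgfra, Dcn, Dpt and Pi16, had means of 4.63 to 36.0 CPM at 2W. Of these, Dcn went from 32.5 and 39.4 CPM to 122 and 73.5 CPM. The 2 called lower were fibrillar collagens: Col3a1 was at 246 and 273 CPM at 2W and 124 and 97.1 CPM at 3M, and Col1a1 at 89.5 and 87.5 CPM and 39.8 and 35.9 CPM. Pdgfra, a receptor of mesenchymal cells, rose from 7.21 and 9.63 CPM to 24.4 and 19.5 CPM. The FPKM ratio of Eln to Pdgfra went from 4.69 ± 0.697 at 2W to 0.802 ± 0.0379 at 6W and 0.322 ± 0.0781 at 3M, while Eln to Col3a1 went from 0.163 ± 0.0246 to 0.0603 ± 0.00661 and then 0.0681 ± 0.0131, with 6W and 3M overlapping.

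Smooth muscle and pericyte markers summed to 164 and 169 CPM at 2W and 193 and 189 CPM at 3M, with 2 of 8 tested genes higher and 0 lower, and endothelial markers to 219 to 247 CPM over all libraries, with 1 of 7 higher in 3M against 2W. Adipocyte markers were higher for 5 of 6 genes and summed to 39.6 and 39.4 CPM at 2W and 305 and 162 CPM at 3M. Thymocyte markers, which make up most of the marker counts, summed to 14700 and 16100 CPM at 2W and 11400 and 11700 CPM at 3M, and 4 of 8 were lower. Markers of cycling cells were lower for 4 of 4 genes and summed to 3410 and 3400 CPM at 2W, 2740 and 2770 CPM at 6W, and 2300 and 1790 CPM at 3M. Mesothelial markers, of which 0 of 4 passed, summed to 14.7 and 11.6 CPM at 2W, 28.6 and 24.6 CPM at 6W, and 32.2 and 14.0 CPM at 3M. Thymic epithelial markers summed to 426 to 594 CPM over all libraries, with 1 of 8, Foxn1, lower in 3M against 2W. Red blood cell markers summed to 1520 CPM in the second 3M library and to 277 to 578 CPM in the other 5. The part of these shifts in the levels of the elastic fibre genes was not tested, and in whole-organ RNA fewer cells of a type and less RNA per cell cannot be told apart. Skeletal muscle markers summed to 11.8 and 7.54 CPM at 2W and 4.63 and 5.15 CPM at 3M, and cartilage markers to 7.27 and 5.21 CPM and 9.14 and 13.1 CPM, with Matn3 at 0 in every library.

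The transcript rows behind each gene sum showed where the counts lay. Fbn2 and Loxl1 were each listed as 1 transcript, and 99.4% or more of Fbn1 came from ENSMUST00000028633 in each library. Eln was carried by ENSMUST00000015138, at 5.71 and 5.16 FPKM at 2W, 2.08 and 2.06 FPKM at 6W, and 1.51 and 0.98 FPKM at 3M. A second Eln transcript, ENSMUST00000201856, was given 26.3% of the gene in the second 2W library and 0% to 5.59% elsewhere, so the gap between the 2W libraries in the gene sum lay in that row.

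**Figure D3:**
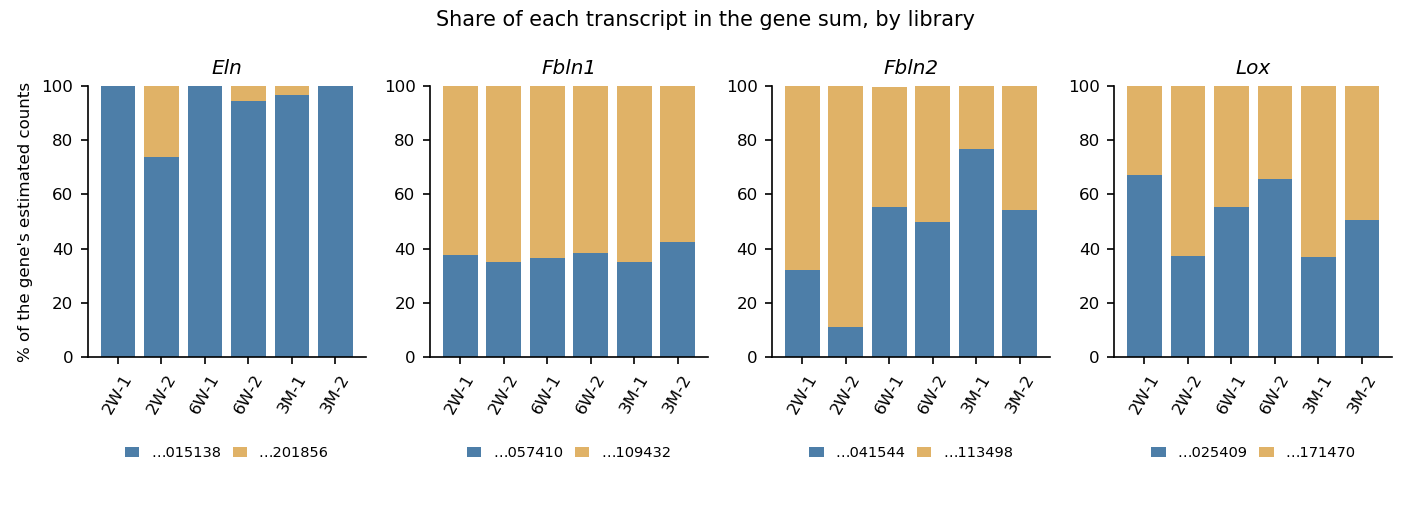
Share of each gene's estimated counts, in percent, given to its main transcripts (last 6 digits of the transcript identifier) in each of the 6 libraries, for Eln, Fbln1, Fbln2 and Lox. The Fbln2 transcript ENSMUST00000113498 holds 67.8% and 89.1% in the 2W libraries against 23.2% and 45.7% in those of 3M, while the Fbln1 shares stay close in all libraries and those of Lox scatter within each age.

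Fbln2 was split between a pair of transcripts that took different courses. ENSMUST00000113498 was at 6.42 and 9.15 FPKM at 2W, 3.55 and 4.04 FPKM at 6W, and 1.28 and 2.56 FPKM at 3M, and the ages did not overlap. ENSMUST00000041544 was at 2.96 and 1.08 FPKM at 2W, 4.29 and 3.89 FPKM at 6W, and 4.11 and 2.95 FPKM at 3M, with the 6W libraries above those of 2W. The lower Fbln2 level at 3M was thus found in the first of them. These shares are estimates from reads that several transcripts can hold, and they were not tested. Lox was also split, and its ENSMUST00000171470 held 32.9% and 62.7% in the 2W libraries against 63.1% and 49.5% in those of 3M, so that the ages overlapped.

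Around the 10 genes, 78 other genes of elastic fibre assembly, turnover and signalling were read, of which 74 could be tested. None of the 74 was lower in any of the 3 comparisons by edgeR's adjusted p. At the study's looser threshold, 17 were higher and 0 lower in 6W against 2W, where 4.48% and 0.878% of all tested genes were. In 3M against 2W these counts were 14 and 1, beside 7.67% and 1.68%. In 3M against 6W they were 0 and 1, and the shares of all genes there are not given here. The lower gene was Mfap4 in both, a microfibril-associated protein named after its values were seen. Its log2 fold changes were -1.46 in 3M against 6W and -1.23 in 3M against 2W. Mfap4 was thinly counted, with 22 and 20 counts at 2W, 25 and 42 at 6W, and 7 and 15 at 3M. By edgeR's adjusted p, 6 rose in 6W against 2W and 15 in 3M against 2W, against the 1.47% and 7.91% of all tested genes given above. In 3M against 6W, 0 passed and DESeq2 called 1, and 8 of the 74 had an unadjusted p under 0.05, as did 14.3% of all genes. The medians of these genes were 0.41, 0.04 and 0.40 on the log2 scale in 6W against 2W, 3M against 6W and 3M against 2W. The 15 came down to 5 without the first 2W library, 6 without the second and 8 without either of the 6W libraries, and the 6 to 0 without any one of the 2W or 6W libraries. The 6 went up to 14 without either 3M library, 13 with DESeq2 and 11 with total-count scaling or with no filter.

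**Figure D4:**
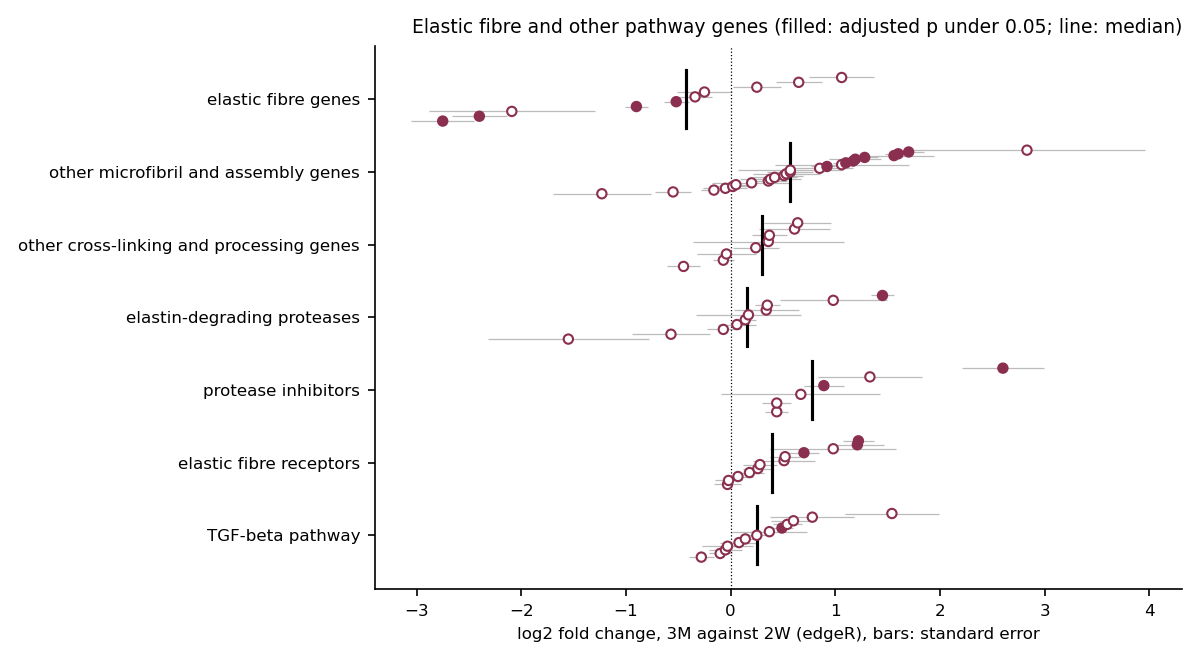
log2 fold change in 3M against 2W on the horizontal axis, with edgeR's standard error as a bar, for the 10 elastic fibre genes and for the tested genes of 6 lists of related genes, with 1 point per gene, filled where the adjusted p was under 0.05, and a black line at each list's median. The elastic fibre genes have their median at -0.43 and filled points only on the left. The other lists have medians of 0.15 to 0.78. Their filled points lie only on the right, and the list of other cross-linking and processing genes has none.

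Other microfibril and assembly genes gave 8 of these 15, among 25 tested, with a list median of 0.57. The genes of the latent TGF-beta binding protein family, microfibril proteins of which Ltbp1 tethers latent TGF-beta and Ltbp4 helps to place elastin, were 4 of these 8. Ltbp1 was at 8.79 and 8.28 CPM at 2W, 20.1 and 20.9 CPM at 6W, and 27.1 and 24.8 CPM at 3M, a log2 fold change of 1.60 (0.13) in 3M against 2W with an adjusted p of 0.00485 by edgeR. Ltbp2 was at 1.70 (0.15), Ltbp3 1.17 (0.14) and Ltbp4 1.10 (0.12) in the same comparison. Libraries of 2W lay below those of 3M for all 4. Those of Ltbp1, Ltbp2 and Ltbp4 were called whichever library was left out, and that of Ltbp3 was lost without the first 2W library.

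Bgn, a small proteoglycan that binds tropoelastin, rose from 20.8 and 17.1 CPM at 2W to 53.8 and 51.9 CPM at 6W and 45.8 and 46.3 CPM at 3M, a log2 fold change of 1.48 (0.13) in 6W against 2W with an adjusted p of 0.0190 by edgeR. The step from 2W to 6W passed, as for Ltbp1, and that from 6W to 3M did not for either. Tnxb, a tenascin of connective tissue, Emilin2, a microfibril glycoprotein, and Efemp1, a fibulin, also passed in 3M against 2W, with log2 fold changes of 0.92, 1.19 and 1.56; with Ltbp3 these are outside the 4 of smallest p in the list and were named after their values were seen. Efemp1 was at 14.0 CPM in the first 3M library and 6.54 CPM in the second, and its call was lost without the first. Mfap3, the most abundant gene of the list per length, had a log2 fold change of 0.05 and did not pass.

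Genes of cross-linking and processing other than the 2 oxidases gave 0 of 8 in each comparison, with a median of 0.30 in 3M against 2W. Atp7a, the copper pump that loads lysyl oxidases, was at -0.07 and Pcolce, an enhancer of procollagen processing, at 0.24. Among 10 tested proteases that can cut elastin, 1 rose in 6W against 2W and in 3M against 2W, where 1.47% and 7.91% of all tested genes did. This was Ctss, a lysosomal elastase of antigen-presenting cells, at 62.3 and 58.9 CPM at 2W, 149 and 136 CPM at 6W, and 168 and 164 CPM at 3M, a log2 fold change of 1.45 (0.11) in 3M against 2W. Ctsl, the most abundant protease of the list and one used by thymic epithelium, was at 0.14 (0.10) and did not pass.

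Protease inhibitors rose for 2 of 6 genes and elastic fibre receptors for 3 of 12 in 3M against 2W, where 7.91% of all tested genes did. Slpi, an inhibitor of neutrophil elastase, was at 0.822 and 0.736 CPM at 2W and 6.07 and 3.45 CPM at 3M, and Cst3, which inhibits cathepsins, at 75.6 and 56.3 CPM and 106 and 139 CPM. Timp2, an inhibitor of matrix metalloproteases, had 0.44 (0.11) and an adjusted p of 0.0505 by edgeR. Of 12 receptors, Itgb3, Itgb5 and Lgals3 rose in 3M against 2W, with log2 fold changes of 0.70, 1.22 and 1.21, and Itgb5 also in 6W against 2W with 1.09 (0.15). The first 2 are integrin chains that bind RGD sites of fibrillins and fibulins, and the other is a galectin of macrophages. Itgb1 and Ctsa, the most abundant receptor genes per length, were at 0.07 and 0.18.

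In the TGF-beta pathway, 1 of 13 genes passed in 3M against 2W, on the higher side, where 7.91% of all tested genes did. Tgfbr3, a coreceptor that thymocytes also express, had 0.49 (0.11), a call lost when any library was left out. The ligand gene Tgfb1 and the shared mediator Smad4 had -0.03 (0.24) and 0.14 (0.10). In 3M against 2W, the calls for Cst3, Itgb3, Lgals3, Emilin2, Efemp1 and Tnxb were each lost when any one of the 2W or 6W libraries was left out, and the first 3 of these also without the second 3M library. That for Emilin2 was also lost without the first 3M library, and those for Slpi and Itgb5 without either 2W library.

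The miRNAs were read from separate libraries of 9181478 to 10994118 counts and took no part in choosing the genes. The miR-29 family, and with it the miR-15 family, is known from other tissues to act on messages of elastin and other matrix proteins. Bases 2 to 8 of a miRNA are the seed with which it pairs to its target. The sequences below are shown because the seed, in capitals, groups them: the first 4 share AGCACCA and the other 5 share AGCAGCA. Those with the prefix mmu are from RefSeq (GRCm38.p6), and miR-29-y is written as in the deposited profile, with U for T.
mmu-miR-29a-3p: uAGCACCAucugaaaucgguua
mmu-miR-29b-3p: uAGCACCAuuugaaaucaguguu
mmu-miR-29c-3p: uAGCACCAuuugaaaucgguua
miR-29-y: uAGCACCAucugaaaucggaa
mmu-miR-16-5p: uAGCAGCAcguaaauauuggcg
mmu-miR-15b-5p: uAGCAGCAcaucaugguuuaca
mmu-miR-195a-5p: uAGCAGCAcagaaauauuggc
mmu-miR-497a-5p: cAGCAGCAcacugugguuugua
mmu-miR-322-5p: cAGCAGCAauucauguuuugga

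miR-29-y shares its first 19 bases with mmu-miR-29a-3p, so reads of the one could be counted for the other. All 4 tested miRNAs with the seed AGCACCA rose in 3M against 2W, in a comparison in which 29.9% of 822 tested miRNAs passed an adjusted p of 0.05 in edgeR, 13.5% on the higher and 16.4% on the lower side. Their summed level was 2159 and 1800 CPM at 2W, 3423 and 3434 CPM at 6W, and 6641 and 5687 CPM at 3M, with no overlap between ages. The mean at 3M was 3.11 times that at 2W.

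Nearly all of the sum was mmu-miR-29a-3p, with 21305 and 17644 counts at 2W, 32806 and 29847 counts at 6W, then 69640 and 49134 counts at 3M. Its log2 fold change was 0.79 (0.19, adjusted p 0.0344) in 6W against 2W, 0.84 (0.19, adjusted p 0.0807) in 3M against 6W and 1.63 (0.20, adjusted p 0.000477) in 3M against 2W by edgeR. The first call was lost without the second 2W library or either 6W library, and the last was kept whichever library was left out. mmu-miR-29c-3p went from 14.8 and 9.70 CPM at 2W to 23.9 and 22.4 CPM at 6W and 68.8 and 51.5 CPM at 3M, with 2.30 (0.27) in 3M against 2W, and mmu-miR-29b-3p had 1.40 (0.27). miR-29-y went from 9.98 and 6.27 CPM to 32.5 and 31.7 CPM and 93.4 and 86.3 CPM, and passed in all 3 comparisons. In 3M against 6W, where 0.852% of tested miRNAs passed, 0.487% higher and 0.365% lower, mmu-miR-29c-3p and miR-29-y passed, and both calls were lost without either 6W library, that of mmu-miR-29c-3p also without the first 3M library.

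**Figure D5:**
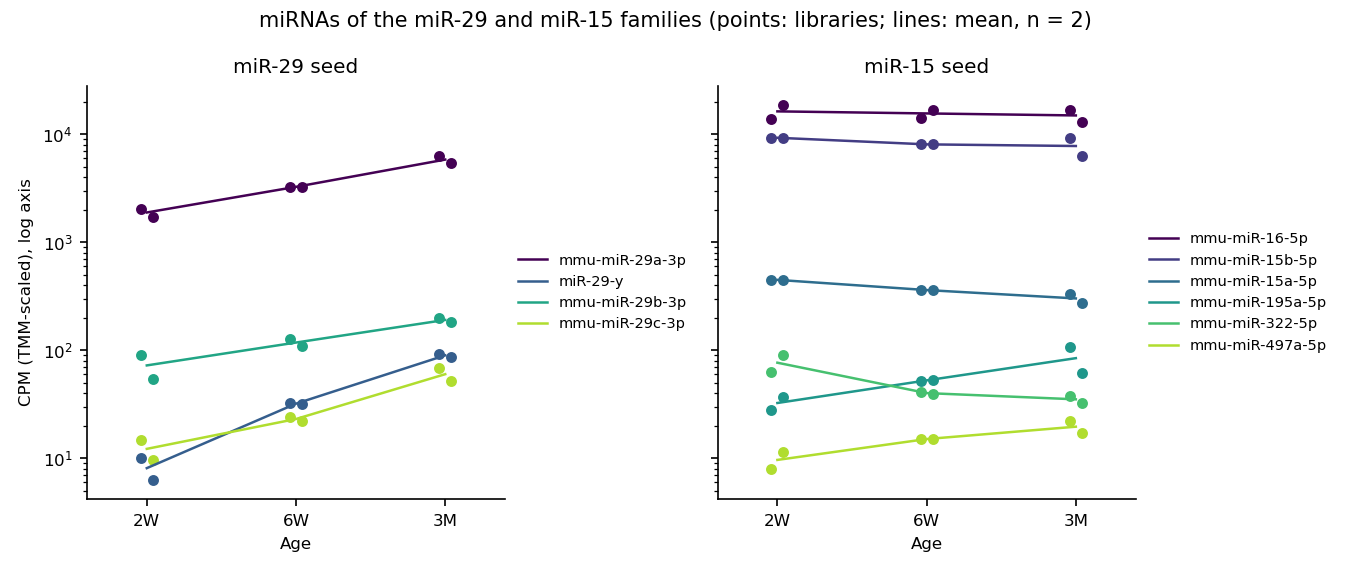
CPM (TMM-scaled, log axis) of 4 miRNAs with the miR-29 seed and 6 with the miR-15 seed against age, with 1 point per library and lines through the means of 2 libraries. All 4 lines of the miR-29 seed lie higher at each later age, while miR-16-5p and miR-15b-5p, the most abundant of the miR-15 seed, stay nearly level.

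The seed AGCAGCA of the miR-15 family gave another picture. Its summed level was 23602 and 28616 CPM at 2W, 22835 and 25457 CPM at 6W, and 26737 and 19709 CPM at 3M, with overlapping ages and a 3M to 2W ratio of 0.889. The most abundant ones, mmu-miR-16-5p and mmu-miR-15b-5p, had log2 fold changes of -0.12 (0.22) and -0.25 (0.21) in 3M against 2W and did not pass. Of 9 tested, 3 rose in that comparison: mmu-miR-195a-5p with 1.38 (0.29), mmu-miR-497a-5p with 1.02 (0.26) and the unprefixed miR-16-x with 0.76 (0.21). mmu-miR-322-5p fell, from 63.1 and 90.5 CPM at 2W to 38.0 and 32.4 CPM at 3M, a log2 fold change of -1.12 (0.24). It had also fallen in 6W against 2W, with -0.93 (0.24), where 8.64% of tested miRNAs passed, 2.31% higher and 6.33% lower.

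Over both families, with their other strands, 34 entries were listed and 27 tested. In 3M against 2W, 9 were higher and 3 lower, beside 13.5% and 16.4% of all tested miRNAs, and in 6W against 2W, 2 and 2, beside 2.31% and 6.33%. Besides mmu-miR-16-5p and mmu-miR-15b-5p, 12 entries passed in none of the 3 comparisons: mmu-miR-15a-5p, mmu-miR-15b-3p, mmu-miR-16-1-3p, mmu-miR-16-2-3p, mmu-miR-29b-1-5p, mmu-miR-29b-2-5p, miR-15-x, miR-15-y, miR-16-y, miR-195-x, miR-29-x and miR-497-x, with log2 fold changes from -0.95 to 1.34 in 3M against 2W. The other strands that passed in 3M against 2W were mmu-miR-29a-5p at 3.03 and mmu-miR-195a-3p at 1.23, which rose, and mmu-miR-322-3p at -1.03 and mmu-miR-15a-3p at -1.17, which fell. The calls for mmu-miR-29a-5p, mmu-miR-322-3p and mmu-miR-322-5p were lost without the second 3M library, those for mmu-miR-15a-3p and mmu-miR-497a-5p without the first 2W or the first 3M library, that for miR-16-x without the first 2W, 6W or 3M library and that for mmu-miR-195a-3p without any library. In 6W against 2W, the fall of mmu-miR-322-5p was lost without the second 2W, either 6W or the second 3M library, and miR-322-y, the other entry that fell, had -1.94 (0.52) and was lost without any library but the first 3M one. Whether the messages of the 10 genes hold matches to these seeds was not looked for, and any link between these miRNAs and the levels of the genes was not tested.

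No circular RNA of an elastic fibre gene was listed. All 10 genes were matched to gene identifiers, and 0 of 6300 circRNAs in the circRNA profile named one of them as its source. The source of 96.5% of the circRNAs matched an identifier in the gene name table, and that of the others, as written, did not. The circRNA profile held 10663 to 21914 junction counts a library, so that a count of 0 allows up to 137 to 281 junction counts per 1000000 for a circRNA in a single library. These limits, taken as 3 counts, cover counting error only. The lncRNA profile gave a gene symbol for 0 of its 30683 entries and could not be searched for antisense transcripts of these genes by name.

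Of 14804 other tested genes, the 8 whose course over the 6 libraries was most like that of Eln were Igf2, Phlda1, Syt14, Cdkl1, Fbn2, Stag3, Cpsf4l and H1f0. Likeness was measured as the root mean square difference in log2 CPM after each gene was centred on its mean, and ran from 0.110 for Igf2 to 0.357 for H1f0, where the median gene had 1.04. Igf2, a growth factor of fetal and early postnatal tissue, was at 6.76 and 9.32 CPM at 2W, 2.08 and 2.52 CPM at 6W, and 1.86 and 1.21 CPM at 3M. Phlda1 was at 31.6 and 33.0 CPM at 2W and 9.62 and 7.30 CPM at 3M. Fbn2 was the fifth in this order and the only other elastic fibre gene among the 8. Fbln2 followed as number 287, Fbn1 as 948, Fbln1 as 2076, Mfap2 as 2910 and Mfap5 as 6179, while Fbln5, Lox and Loxl1 stood at 9571, 11741 and 13403.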

How the data were processed

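Total RNA of whole thymus was sequenced as ribosomal RNA-depleted, strand-specific (dUTP) long RNA libraries and as small RNA libraries. The authors deposited estimated counts and FPKM per mRNA and lncRNA transcript, back-splice junction counts and RPM per circRNA, and counts and TPM per miRNA; RPM and TPM entered no result. The submitters' processing notes name Bowtie 0.12.2 and the mm8 build without a role, and the quantification program is not given in the sources used here. Estimated counts (84.1% of nonzero values were not whole) were summed per gene symbol, joining spellings that differ in case (665 genes, 0 of the 10), and rounded. Transcripts with no symbol, 0.699% to 1.2% of the counts, were left out.

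edgeR 4.0.16 (R 4.3.3) filtered (filterByExpr), scaled (TMM) and fitted all 6 libraries with age as the only term, with a quasi-likelihood test and Benjamini-Hochberg adjustment over 14805 genes or 822 miRNAs. CPM are on TMM-scaled library sizes. The script was tested on simulated counts. Gene and miRNA lists and the members were chosen with earlier results of these data known. Named were the members, up to 4 called genes per list, direction and comparison by smallest p, the 2 highest in FPKM per list, every tested miR-29 and miR-15 entry, and the 8 genes most like Eln (prior count 2). Alternatives were DESeq2 1.42.0, total-count scaling, no filter, 4 libraries, a replicate block, exact symbols and each library left out. Deviations of same-numbered libraries from their age means correlated from -0.18 to 0.35 in genes and -0.15 to 0.22 in miRNAs, not above 0.1 for every pair of ages, so replicate numbers were not used as pairs. p-values set a difference between age means against the spread within ages. That spread was estimated from all 6 libraries, 2 an age, and moderated across genes. Figures were drawn with matplotlib 3.10.9.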

Additional observations from a re-analysis of the deposited data

How the results depend on the processing

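In 3M against 2W, 4 elastic fibre genes were called, and 3 to 4 under each of the 12 alternatives: Eln, Fbn2 and Fbln2 under all 12, Fbn1 under 3. In 6W against 2W, the 2 calls became 1 (Fbn2) with exact symbols, 0 with the replicate block and 0 to 2 with 1 library left out. In 3M against 6W, 0 became 1 (Fbln2) with DESeq2. Among the 74 other pathway genes, the 6 calls in 6W against 2W became 13 with DESeq2, 11 with total-count scaling, 11 with no filter, 13 with only the 4 libraries compared, 0 with the replicate block and 0 to 14 with 1 library left out. Their 15 in 3M against 2W became 9 with 4 libraries, 9 with the replicate block and 5 to 16 with 1 library left out, of which 1 was lower without the second 3M library. Their 0 in 3M against 6W became 1 with DESeq2. Of the miRNA entries, the 4 calls in 6W against 2W became 2 with the replicate block and 1 to 6 with 1 library left out, and the 2 in 3M against 6W became 0 to 2 with 1 library left out. The cause of these changes was not tested. The replicate block moved no other count by over 1.5 times. No result changed sign while called. Total-count scaling moved the median of all genes by 0.07 at most. Mfap2 had 1 to 25 counts a library, and its standard error of 0.79 in 3M against 2W is the largest of the 10 genes.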
